A study of Mus musculus with 9 samples.

Results

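The collagen chain genes of mouse embryonic fibroblasts were followed in cells that expressed a *CRX* homeobox gene ectopically. The members were every gene of the count table whose symbol had the form Col, a number, a and a number, which gave 44 of 22068 listed genes. They were grouped by textbook collagen class into 11 fibrillar, 9 network-forming, 9 FACIT (fibril-associated collagens with interrupted helices), 6 beaded filament (collagen VI) and 9 other chains. A minimum level of expression was set before testing, and 22 of the 44 members passed it. These were 8 fibrillar, 6 network-forming, 2 FACIT, 3 beaded filament and 3 other chains.

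RNA-seq was performed on 9 libraries of MEFs, primary fibroblasts of C57Bl/6 mouse embryos at passage 2. The cells were electroporated with a plasmid that carried a puromycin resistance gene and a V5-tagged human *CRX* (eutherian *CRX*, 3 libraries), a V5-tagged opossum *CRX* (metatherian *CRX*, 3 libraries) or no homeobox gene (control, 3 libraries). All 9 were kept in puromycin for 5 days. The labels give a recovery of 48 h after selection, whereas the methods of the study describe an overnight culture. The comparison asks how a eutherian and a metatherian form of a transcription factor act on the transcriptome of the same cells. The study describes *CRX* as a gene of the retina in eutherian mammals and of the eye and early embryo in metatherians. Fibroblasts do not normally use it, so the cells serve as a test bed and not as a model of the retina. Nothing in the labels says that replicates came from separate cultures or embryos, so p-values measure the spread between these libraries, which may be technical.

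Collagens are the main structural proteins of the extracellular matrix. Each alpha chain holds runs of the triplet glycine-X-Y, and 3 chains wind into a helical trimer in the endoplasmic reticulum after proline and lysine hydroxylation. Fibrillar collagens are then trimmed, assembled into fibrils and cross-linked, network-forming collagens build sheets such as basement membranes, FACITs sit on fibril surfaces, and collagen VI forms beaded microfibrils around cells. Cultured fibroblasts are known for high output of collagens I, III, V and VI.

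The libraries held 54145701 to 94699657 counts, and the 22 tested members had 287 to 841833 counts per library, so that counting error was small against the spread between replicates. The mouse *Crx* gene had 627, 995 and 313 counts in eutherian *CRX* replicates 1 to 3, 0 in all 3 control libraries and 4, 0 and 0 in the metatherian *CRX* libraries, so that these counts check the eutherian label but not the metatherian one. All 6 fibroblast markers were expressed, with *Vim* between 2120 and 3076 FPKM (counts per kilobase of exon, scaled to library size with TMM factors). Some listed markers of endothelial cells (*Pecam1*, *Cdh5*, *Tie1*), Schwann cells (*Sox10*), epithelium (*Epcam*, *Cdh1*), macrophages (*Ptprc*, *Itgam*) and skeletal muscle (*Myod1*, *Myog*) stayed below 0.5 FPKM in all 9 libraries. Others did not, with the macrophage marker *Emr1* at up to 0.947 FPKM, the endothelial marker *Tek* at up to 0.742 and the muscle marker *Des* at 1.48 to 5.99. Further genes of these lists above that level were *Krt18* at up to 8.47 FPKM, *Kdr* at up to 2.82, *Cd68* at up to 4.77 and *Csf1r* at up to 1.51. *Acta1* was at 12.1 to 61.6 in control and 5.26 to 11.7 in the *CRX* libraries, all below control. Over the 9 libraries the listed markers summed to 2.06 to 3.23 FPKM for endothelial cells, 0.195 to 8.78 for epithelium, 2.11 to 7.69 for macrophages, 7.73 to 65.5 for skeletal muscle and 3.502 to 9.53 for osteoblasts. The macrophage sums were 4.37 to 7.69 FPKM in control, 2.11 to 5.25 with eutherian *CRX* and 2.19 to 3.32 with metatherian *CRX*, where all libraries were below control. The osteoblast sums were 4.11 to 5.13 in control, 3.502 to 9.53 with eutherian *CRX* and 5.30 to 8.86 with metatherian *CRX*, where all libraries were above control. *Dmp1*, a matrix protein of bone cells, was at 0.541, 1.05 and 0.979 FPKM in control, 0.816, 0.653 and 4.34 with eutherian *CRX* and 2.06, 4.50 and 4.14 with metatherian *CRX* (2.04 ± 0.54 on the log2 scale for the latter, adjusted p = 0.127, edgeR). The other osteoblast markers did not move with *Dmp1*. *Runx2* was at 0.07 ± 0.12 on the log2 scale with metatherian *CRX*, and *Sp7*, *Bglap* and *Ibsp* overlapped with control. *Alpl* was below control in all *CRX* libraries. It was at 0.116 to 0.190 FPKM in control, 0.0069 to 0.0913 with eutherian *CRX* and 0.0219 to 0.0377 with metatherian *CRX*. The part of these markers in the collagen values was not tested. The libraries numbered 3 stood apart from numbers 1 and 2. In replicate 3 of eutherian and metatherian *CRX* the median collagen was 1.27 and 1.08 log2 units below the mean of replicates 1 and 2, while in control replicate 3 it was 0.40 above. The corresponding medians of all genes lay between −0.004 and 0.008. The fold changes of the tested members against control are therefore given with and without the libraries numbered 3.

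Collagens took a smaller share of the transcriptome in every *CRX* library than in any control library. The 44 members together made up 3.93, 3.40 and 3.38% of all counts in control replicates 1 to 3. They made up 2.72, 2.68 and 0.764% with eutherian *CRX* and 2.30, 1.89 and 0.975% with metatherian *CRX*. The mean share was thus 3.57% ± 0.314 in control, 2.06% ± 1.12 in eutherian and 1.72% ± 0.677 in metatherian *CRX* libraries (SD, n = 3 each), and the large SD of the eutherian group came from its replicate 3. *Col1a1*, *Col1a2* and *Col3a1* alone took 2.49, 2.07 and 1.74% in control, 1.56, 1.62 and 0.266% with eutherian *CRX* and 1.10, 0.872 and 0.351% with metatherian *CRX*. Within the collagens, eutherian replicates 1 and 2 had class shares inside the control range for fibrillar and beaded filament chains, and eutherian replicate 3 did not. Fibrillar chains were 80.8, 78.3 and 71.7% of collagen counts in control, 77.9, 79.0 and 53.8% with eutherian *CRX* and 71.6, 68.3 and 56.2% with metatherian *CRX*. Beaded filament chains were 4.55, 5.80 and 10.2% in control, 5.73, 5.35 and 24.5% with eutherian *CRX* and 11.2, 15.9 and 21.3% with metatherian *CRX*. All 3 metatherian libraries lay above all 3 control libraries in this share of collagen VI. As a share of all counts the beaded filament chains overlapped, at 0.179, 0.197 and 0.344% in control, 0.156, 0.144 and 0.187% with eutherian *CRX* and 0.259, 0.301 and 0.207% with metatherian *CRX*.

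**Figure D1:**
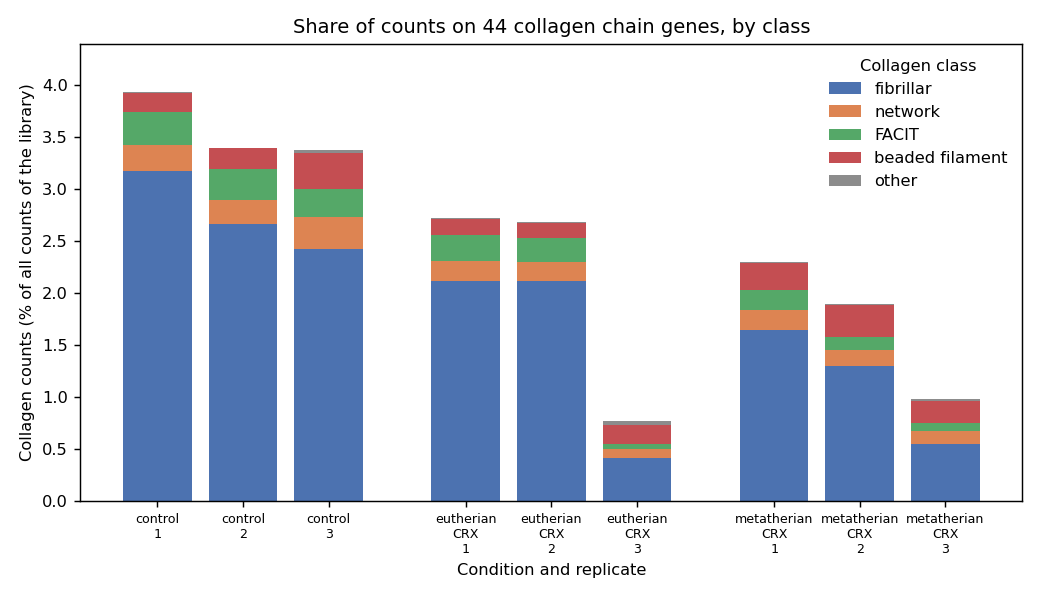
Share of all counts of a library (%, y axis) that fell on the 44 collagen chain genes, stacked by collagen class, for each of the 9 libraries (x axis). Control bars reach 3.38 to 3.93%, and every *CRX* bar is shorter, down to 0.764% in eutherian *CRX* replicate 3, with most of the difference in the fibrillar segment.

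In bulk RNA of this kind, fewer collagen-producing cells and less collagen RNA per cell cannot be told apart. *Acta2*, the actin of smooth muscle and contractile fibroblasts, was at 485, 591 and 969 FPKM in control, 329, 298 and 44.04 FPKM with eutherian *CRX* and 157, 101 and 220 FPKM with metatherian *CRX*. The summed level of the 5 smooth muscle and pericyte markers was 526 to 1037 FPKM in control, 157 to 369 with eutherian *CRX* and 198 to 316 with metatherian *CRX*, with none of the 5 at 0 and *Acta2* the largest part of the sum in all libraries but eutherian replicate 3. *Rgs5*, a pericyte gene of the same list, was at 3.69, 2.77 and 12.0 FPKM in control, 2.62, 3.59 and 57.6 with eutherian *CRX* and 14.5, 29.1 and 64.0 with metatherian *CRX*, with all metatherian libraries above control. The summed fibroblast markers ranged over 3444 to 3651, 2649 to 3552 and 2474 to 3304 FPKM in the same order. The 6 fibroblast markers did not move alike. The fibril-coating proteoglycan *Dcn* was at 228, 203 and 101 FPKM in control, 167, 208 and 75.8 with eutherian *CRX* and 30.2, 20.9 and 79.8 with metatherian *CRX*. *Lum*, of the same family, was at 239, 181 and 51.5 FPKM in control, 184, 239 and 22.01 with eutherian *CRX* and 33.0, 18.4 and 27.6 with metatherian *CRX*. For both, metatherian libraries were all below control and eutherian libraries overlapped with it. *Pdgfra*, a growth factor receptor, was at 23.5, 28.6 and 35.4 FPKM in control, 27.7, 29.3 and 46.3 with eutherian *CRX* and 36.5, 45.0 and 48.1 with metatherian *CRX*, and the metatherian libraries were all above control. *Vim*, *Thy1* and *Pdgfrb* had log2 fold changes of −0.08 ± 0.14, −1.14 ± 0.24 and −0.90 ± 0.21 with metatherian *CRX* and of −0.06 ± 0.14, −1.34 ± 0.24 and −0.48 ± 0.21 with eutherian *CRX*, where all *Thy1* libraries (74.0 to 92.7 FPKM) were below control (136 to 404). None of the 6 was called (edgeR). The part of these cells or states in the collagen values was not tested.

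With metatherian *CRX*, most collagen chains had lower values than control, with *Col3a1* the lowest, while the collagen VI chain *Col6a3* and the cartilage chain *Col2a1* had higher ones. Of 22 tested members, 18 had a log2 fold change below 0, with a median of −0.71 beside −0.008 for all 10100 genes tested. None passed an adjusted p of 0.05 (edgeR's quasi-likelihood F-test, Benjamini-Hochberg adjusted p of 0.141 to 0.978), and in all 0.0297% of genes did. At an unadjusted p under 0.05 7 members were lower (*Col1a1*, *Col1a2*, *Col3a1*, *Col4a1*, *Col5a1*, *Col8a1* and *Col8a2*) beside 10.5% of all genes, and 1 was higher (*Col6a3*) beside 9.04%. DESeq2 called 4 members lower and 1 higher, beside 5.27 and 4.67% of all genes. Limma voom with sample quality weights called 10 lower and 6 higher, beside 23.5 and 22.6% of all genes. In 12 members every metatherian library lay below every control library, beside 12.3% of all genes, and in no member did all lie above, beside 11.0%. By class, 7 of 8 fibrillar chains (median −1.12), 6 of 6 network-forming chains (median −0.71), 1 of 2 FACITs, 2 of 3 beaded filament chains (median −0.41) and 2 of 3 other chains were below 0. These class values hold for 9 libraries. Without the libraries numbered 3, log2 fold changes were −2.25 to 1.60 in fibrillar and −1.13 to 0.61 in network-forming chains. They were −1.10 and 0.70 in FACITs, −0.245 to 1.21 in beaded filament chains and 0.18 to 1.01 in the others. *Col6a1*, *Col10a1*, *Col11a1*, *Col18a1* and *Col28a1* turned from below to above 0 there.

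Leaving out the libraries numbered 3 changed the number of calls. With 2 libraries per group, edgeR called 9 members lower and 5 higher, where 11.1% of all 10025 genes were called lower and 11.0% higher, and the median collagen was at −0.17. The 9 lower genes were *Col1a1*, *Col1a2*, *Col3a1*, *Col4a5*, *Col5a1*, *Col5a2*, *Col8a1*, *Col8a2* and *Col12a1*, and the 5 higher genes were *Col2a1*, *Col6a3*, *Col7a1*, *Col10a1* and *Col16a1*. The largest fall was that of *Col3a1* (log2 fold change −2.25 ± 0.22, adjusted p = 0.00107, edgeR) and the largest rise that of *Col2a1* (1.60 ± 0.09, adjusted p = 0.000239, edgeR), where ± is the standard error as for all fold changes here. Leaving out a single library also gave calls in part. Without eutherian *CRX* replicate 3, 6 members were called lower with metatherian *CRX*, beside 4.97% of all genes, and without metatherian *CRX* replicate 3, 3 were called higher, beside 2.69%.

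With eutherian *CRX*, nearly all collagen chains had values below control. A log2 fold change below 0 was found for 21 of 22 members, with a median of −1.07 beside 0.001 for all genes tested. None passed the adjusted threshold (edgeR, adjusted p of 0.165 to 0.998), where 0.604% of all genes did. At an unadjusted p under 0.05, 9 members were lower (*Col1a1*, *Col1a2*, *Col4a1*, *Col4a2*, *Col5a1*, *Col6a1*, *Col6a2*, *Col8a2* and *Col28a1*) beside 6.34% of all genes and 0 higher beside 2.23%. DESeq2 called 7 members lower, beside 2.92% of all genes, and limma voom with sample quality weights called 12 lower, beside 10.1%. In 12 members every eutherian library was below every control library, beside 7.8% of all genes, and 0 members had all libraries above, beside 6.21%. Over 9 libraries the class medians were −1.10 for both fibrillar and network-forming chains, −0.93 for FACITs, −0.99 for beaded filament chains and −0.48 for the others. Without the libraries numbered 3 the median of the 22 members was −0.50, and edgeR called 6 members lower (2.47% of all genes) and 0 higher (0.469% of all genes). These 6 were *Col1a1*, *Col2a1*, *Col4a1*, *Col4a2*, *Col6a1* and *Col6a2*. By class, the log2 fold changes there were −0.61 to −0.19 in fibrillar and −0.83 to 0.36 in network-forming chains. They were −0.38 and −0.53 in FACITs, −0.51 to −0.21 in beaded filament chains and −0.86 to −0.28 in the others.

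**Figure D2:**
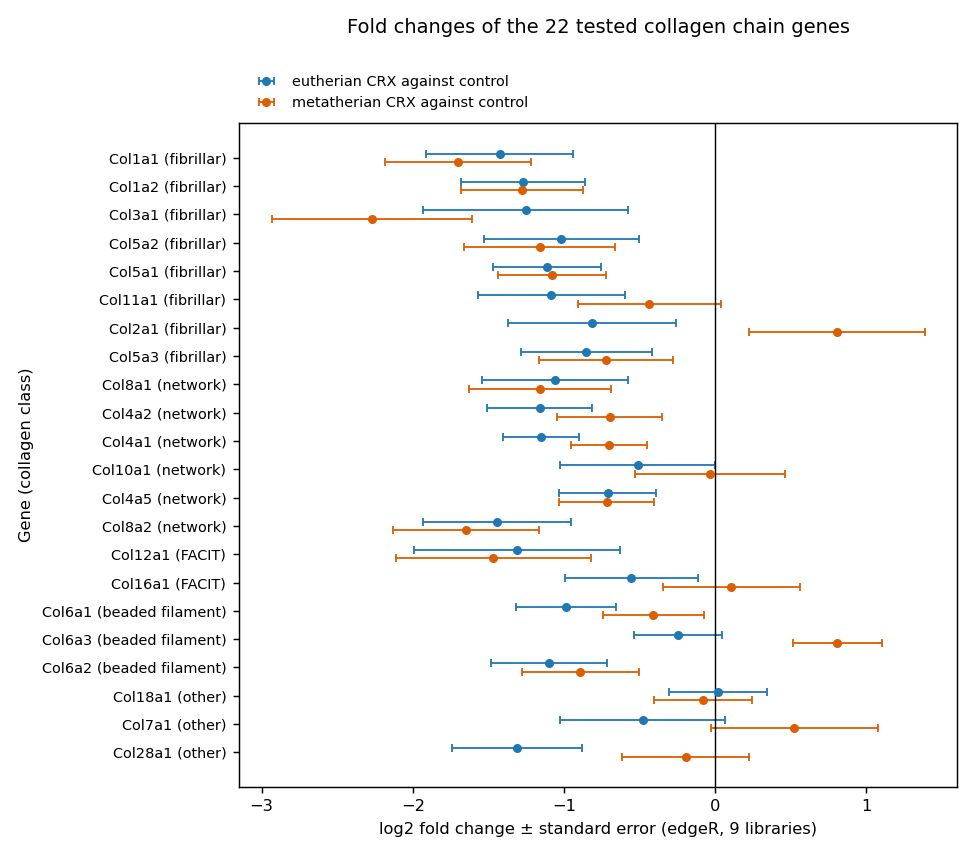
Log2 fold change (x axis) of each of the 22 tested collagen chain genes (y axis, with its class) with eutherian (blue) and metatherian *CRX* (orange) against control, edgeR over 9 libraries, bars standard errors. Points crowd left of 0 for both, down to −2.27 for *Col3a1*, and the orange points of *Col2a1* and *Col6a3* stand at 0.81.

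Between the *CRX* forms the collagens spread around 0, and both comparisons above share the same control libraries. The direct comparison of metatherian with eutherian *CRX* gave a median of 0.17 over the 22 members beside −0.005 for all genes, 13 of them above 0. This median was 0.331 without the libraries numbered 3 and ranged from 0.013 (without metatherian *CRX* replicate 1) to 0.534 (without metatherian *CRX* replicate 3) with single libraries left out. None of the 22 passed the adjusted threshold (edgeR, adjusted p of 0.309 to 0.998, 0.0% of all genes called). At an unadjusted p under 0.05, 3 members were higher with metatherian *CRX* (*Col2a1*, *Col6a3* and *Col28a1*) beside 7.41% of all genes, and 0 lower beside 4.13%. DESeq2 called 1 member higher, *Col6a3*, beside 2.26% of all genes. Limma voom with sample quality weights called 9 higher and 1 lower, beside 24.0 and 24.3% of all genes. All metatherian libraries were above all eutherian libraries for *Col4a1* and *Col6a3*, which is 2 members beside 6.23% of all genes, and below for 0 beside 5.3%. Without the libraries numbered 3, 9 members were called higher (12.7% of all genes) and 3 lower (9.86% of all genes) with metatherian *CRX*. The 3 lower were *Col3a1*, *Col8a1* and *Col12a1*. The 9 higher were *Col2a1*, *Col11a1*, *Col4a1*, *Col4a2*, *Col6a1*, *Col6a3*, *Col16a1*, *Col7a1* and *Col28a1*. Without eutherian *CRX* replicate 3 alone, *Col3a1* was called lower, beside 1.36% of all genes. Without metatherian *CRX* replicate 3 alone, *Col2a1*, *Col6a3* and *Col16a1* were called higher, beside 1.14% of all genes.

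Collagen I, the most abundant fibril protein of skin, bone and tendon, is made of chains from *Col1a1* and *Col1a2*. *Col1a1* (chr11:94936270-94951867, mm10) was the most abundant member. It was at 2124, 1955 and 1645 FPKM in control, 1377, 1295 and 232.6 with eutherian *CRX* and 1118, 1003 and 220.4 with metatherian *CRX*. No *CRX* library reached the lowest control library, and the replicates numbered 3 were far below the other *CRX* libraries. The log2 fold change was −1.70 ± 0.48 with metatherian *CRX* (unadjusted p = 0.0100, adjusted p = 0.141, edgeR) and −1.43 ± 0.48 with eutherian *CRX* (unadjusted p = 0.0220, adjusted p = 0.456, edgeR). Without the libraries numbered 3 these were −0.95 ± 0.11 and −0.61 ± 0.11, with adjusted p of 0.00182 and 0.0381 (edgeR). *Col1a2* was at 1280, 1062 and 1217 FPKM in control, 789, 763 and 198 with eutherian *CRX* and 799.6, 567 and 302 with metatherian *CRX*. The control libraries did not overlap with either *CRX* group, and the fold changes of −1.28 ± 0.40 and −1.27 ± 0.41 with metatherian and eutherian *CRX* had adjusted p of 0.168 and 0.425 (edgeR). They were, in replicates 1 and 2, −0.79 ± 0.13 and −0.59 ± 0.13, and the former was called (adjusted p = 0.00749 and 0.0761, edgeR). The direct difference was −0.0028 ± 0.40 log2 units, a value whose sign turned with relative-log-expression scaling (0.0016).

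*Col3a1*, whose product forms homotrimers that share fibrils with collagen I in elastic tissues, had the lowest fold change of all members with metatherian *CRX*. Its levels were 1663, 1220 and 663 FPKM in control, 918, 1098 and 53.0 with eutherian *CRX* and 378, 234 and 134 with metatherian *CRX*. Metatherian libraries 1 and 2 were below eutherian libraries 1 and 2, and eutherian library 3 was the lowest of all. The log2 fold change was −2.27 ± 0.66 with metatherian *CRX* (adjusted p = 0.148, edgeR), −1.25 ± 0.68 with eutherian *CRX* and −1.02 ± 0.68 between them. With replicates 1 and 2 only, these were −2.25 ± 0.22, −0.48 ± 0.22 and −1.77 ± 0.22, and the first and the last were called (adjusted p = 0.00107, 0.334 and 0.00286, edgeR).

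The upstream sequence of *Col3a1* is shown because this member was lowest with metatherian *CRX*, and that of *Col6a3* because it stood with *Col2a1* at the upper end (0.81 each over 9 libraries), both chosen after the values were seen. The windows end at the base before the RefSeq transcript start, on assembly GRCm38.p6, at chr1:45311288-45311537 (plus strand) and chr1:90843972-90844221 (minus strand), and overlap no annotated exon. They are read 5′ to 3′ along the gene, and capitals mark the motif TATAAA.
Col3a1: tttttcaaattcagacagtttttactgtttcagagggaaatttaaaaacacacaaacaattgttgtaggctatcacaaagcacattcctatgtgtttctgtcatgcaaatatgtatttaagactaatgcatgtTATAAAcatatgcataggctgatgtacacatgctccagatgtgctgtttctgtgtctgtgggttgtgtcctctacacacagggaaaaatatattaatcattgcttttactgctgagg
Col6a3: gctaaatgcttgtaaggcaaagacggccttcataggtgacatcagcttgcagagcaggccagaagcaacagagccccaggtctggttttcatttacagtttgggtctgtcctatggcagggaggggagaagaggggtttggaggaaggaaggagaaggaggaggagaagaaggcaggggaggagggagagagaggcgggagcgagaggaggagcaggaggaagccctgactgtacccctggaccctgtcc
TATAAA on the sense strand, the letters of a TATA box, begins 117 bases before the start of *Col3a1* and is not among the letters of the *Col6a3* window. Whether it acts as a TATA box at that distance was not tested. Promoter windows of 250 bases before to 50 after the start were found for 35 of 44 members, 18 of the 22 tested, as 38 windows. TATAAA was in 5 of these (*Col3a1*, *Col10a1*, *Col11a2*, *Col13a1* and *Col17a1*), beside 8.32% of all 32851 RefSeq windows. TAATCC, the core of the sites that CRX and other OTX-class homeodomains bind, was searched on both strands. It was in 0 of 38 collagen windows, beside 7.06% of all windows.

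Collagen V regulates the start and width of collagen I fibrils. *Col5a2* was at 565, 439 and 479 FPKM in control, 451, 421 and 67.6 with eutherian *CRX* and 388, 246 and 136 with metatherian *CRX*. *Col5a1* was at 292, 302 and 339.6 FPKM in control, 224, 183 and 82.1 with eutherian *CRX* and 215, 208 and 79.1 with metatherian *CRX*. Metatherian libraries lay below all control libraries for both chains, and eutherian libraries did so for *Col5a1* but not for *Col5a2*. The fold changes with metatherian and eutherian *CRX* were −1.16 ± 0.50 and −1.02 ± 0.51 for *Col5a2* and −1.08 ± 0.36 and −1.11 ± 0.36 for *Col5a1*, with adjusted p from 0.182 to 0.684 (edgeR). In replicates 1 and 2 alone they were −0.68 ± 0.14 and −0.19 ± 0.14 for *Col5a2* and −0.49 ± 0.11 and −0.56 ± 0.11 for *Col5a1*, and both metatherian values were called (adjusted p = 0.0169 and 0.0228, edgeR) but neither eutherian value (0.568 and 0.0543). *Col5a3*, a minor chain of the same collagen, was between 2.39 and 11.2 FPKM and had fold changes of −0.72 ± 0.44 and −0.85 ± 0.43, which were −0.0012 ± 0.17 and −0.41 ± 0.17 in replicates 1 and 2. *Col3a1* and *Col5a2* lie 24624 bases apart on chromosome 1, on opposite strands.

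Of the fibrillar chains of cartilage, *Col2a1* had its highest levels in metatherian *CRX* replicates 1 and 2. *Col2a1*, whose product is the main collagen of cartilage, was at 14.2, 11.2 and 7.36 FPKM in control, 9.34, 7.31 and 3.498 with eutherian *CRX* and 39.1, 37.0 and 2.85 with metatherian *CRX*. Metatherian replicates 1 and 2 were the highest of the 9 libraries and replicate 3 the lowest, so that the groups overlapped. The log2 fold change was 0.81 ± 0.58 with metatherian *CRX* (adjusted p = 0.487, edgeR), −0.81 ± 0.55 with eutherian *CRX* (adjusted p = 0.778, edgeR) and 1.62 ± 0.58 between them (unadjusted p = 0.0276, adjusted p = 0.362, edgeR). With replicates 1 and 2 only, these were 1.60 ± 0.09, −0.61 ± 0.09 and 2.21 ± 0.10 (adjusted p = 0.000239, 0.0259 and 0.000215, edgeR). *Col11a1* was at 105, 73.6 and 93.0 FPKM in control, 79.9, 69.0 and 14.8 with eutherian *CRX* and 127, 85.2 and 34.4 with metatherian *CRX*, and its fold changes were −1.08 ± 0.49 and −0.43 ± 0.47 with eutherian and metatherian *CRX*. In replicates 1 and 2 they were −0.25 ± 0.11 and 0.24 ± 0.11, neither of them called (edgeR).

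The chains of collagens IX and XI below the minimum level for a test, *Col9a1*, *Col9a2*, *Col9a3* and *Col11a2*, were also highest in metatherian *CRX* replicates 1 and 2. This grouping was made after the values were seen, and *Col27a1*, a fibrillar chain of cartilage and bone that was not tested either, was at 0.696 and 0.835 FPKM in these replicates, below its 3 control libraries. *Col9a1* was at 1.95, 1.35 and 0.0753 FPKM with metatherian *CRX* and at 0.0281 to 0.738 in the other 6 libraries. *Col9a2* was at 1.37, 1.20 and 0.210 with metatherian *CRX*, *Col9a3* at 2.19, 1.72 and 0.305, and *Col11a2* at 1.496, 1.58 and 0.155. In control libraries *Col9a2* was between 0.382 and 0.734 FPKM, *Col9a3* between 0.428 and 0.717 and *Col11a2* between 0.391 and 0.448. For all 4 of these genes metatherian replicates 1 and 2 were above the other 7 libraries. Of the cartilage markers that are not collagens, *Comp* was at 47.3, 32.0 and 3.62 FPKM with metatherian *CRX* and 17.8, 13.3 and 16.99 in control. *Sox9*, a transcription factor of cartilage, was at 9.90, 13.5 and 14.0 against 7.60, 9.60 and 15.5. *Hapln1*, a link protein of cartilage matrix, was at 4.38, 5.84 and 2.45 against 3.96, 2.48 and 1.22 (0.78 ± 0.24, unadjusted p = 0.0147, adjusted p = 0.162, edgeR). *Acan*, the main proteoglycan of cartilage, was at 1.43, 1.23 and 0.324 against 1.60, 1.24 and 0.627, and *Matn1* was under 0.04 FPKM in all libraries. *Matn3* was at 0.0788, 0.0528 and 0.0504 against 0.255, 0.185 and 0.352, and *Lect1* at 1.35, 0.357 and 0 against 0.762, 0.324 and 0.0482. The 7 chondrocyte markers summed to 20.4 to 64.4 FPKM with metatherian *CRX*, 25.1 to 28.4 with eutherian *CRX* and 27.1 to 34.8 in control, and none of the 7 was at 0 throughout. Their part in the collagen values was not tested. Exons of *Col9a3* share 230 of 3037 bases with the antisense gene *Tcfl5*, so its reads are uncertain where strand was not counted.

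**Figure D3:**
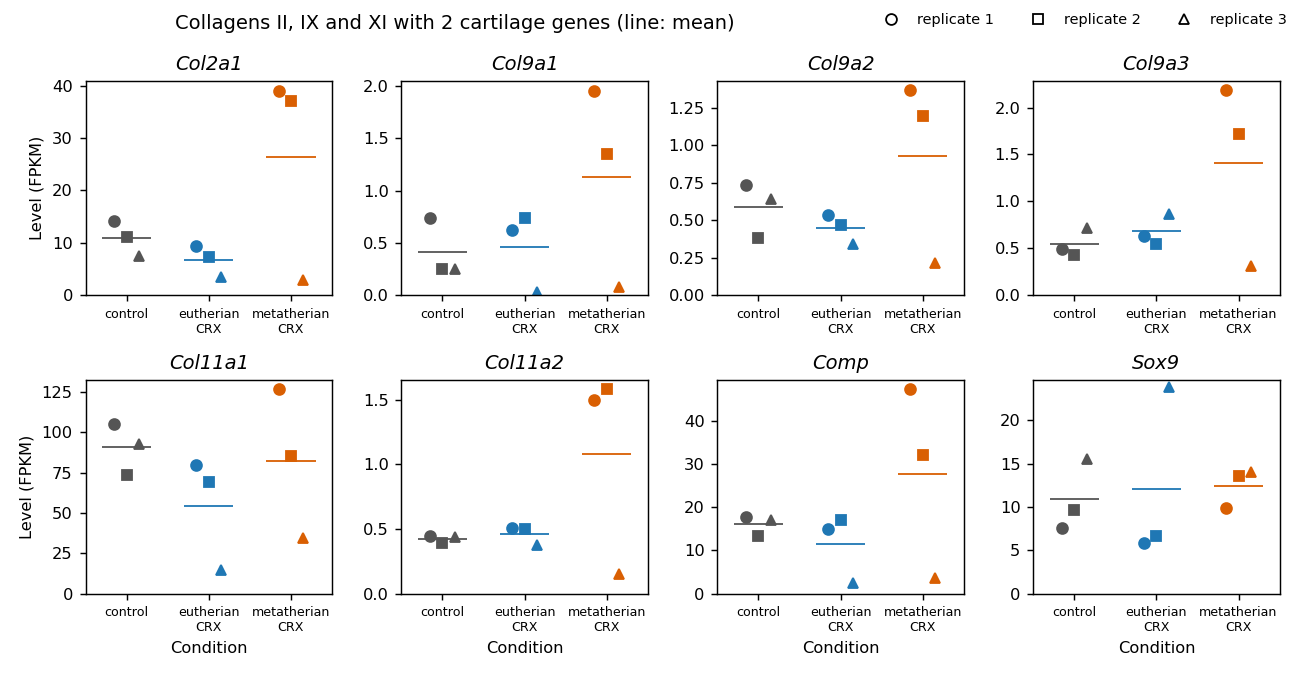
Level (FPKM, y axis from 0, scale differing by panel) of the cartilage chains of collagens II, IX and XI and of *Comp* and *Sox9* in each library (points, shape by replicate number) by condition (x axis), lines group means. Metatherian *CRX* replicates 1 and 2 lie above the other libraries for *Col2a1* (39.1 and 37.0 FPKM), *Col9a1*, *Col9a2*, *Col9a3*, *Col11a2* and *Comp*, and replicate 3 does not.

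Collagen IV, the sheet-forming collagen of basement membranes, had values below control with both *CRX* forms for its 3 tested chains. *Col4a1* was at 76.8, 77.6 and 151 FPKM in control, 46.7, 40.6 and 46.5 with eutherian *CRX* and 64.8, 62.2 and 53.5 with metatherian *CRX*. The 3 groups did not overlap, with control highest and eutherian *CRX* lowest. Its fold change with eutherian *CRX*, −1.15 ± 0.25, had the smallest p of any member in that comparison (unadjusted p = 0.00274, adjusted p = 0.165, edgeR), and the change with metatherian *CRX* was −0.70 ± 0.25 (adjusted p = 0.202, edgeR). *Col4a2* was at 78.1, 83.3 and 155 FPKM in control, 53.9, 46.4 and 41.1 with eutherian *CRX* and 75.1, 76.1 and 43.7 with metatherian *CRX*. Its fold changes of −1.16 ± 0.35 and −0.70 ± 0.35 with eutherian and metatherian *CRX* were close to those of *Col4a1*, the gene 2 bases away on chromosome 8 in head-to-head orientation. In replicates 1 and 2 alone, both genes were called lower with eutherian *CRX*, at −0.83 ± 0.09 and −0.69 ± 0.10 (adjusted p = 0.00900 and 0.0201, edgeR), while with metatherian *CRX* they were at −0.28 ± 0.09 and −0.10 ± 0.10 and were not called. *Col4a5*, an X-linked chain, was at 27.1 to 32.6 FPKM in control, 8.19 to 26.2 with eutherian *CRX* and 14.5 to 25.1 with metatherian *CRX* and had fold changes of −0.71 ± 0.32 and −0.72 ± 0.32, which were −0.22 ± 0.13 and −0.54 ± 0.13 in replicates 1 and 2, the latter called (adjusted p = 0.0239, edgeR).

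The collagens VIII and X build hexagonal lattices, the former in vessel walls and the eye, the latter in hypertrophic cartilage. *Col8a1* was at 221, 193 and 129.7 FPKM in control, 146, 155 and 20.0 with eutherian *CRX* and 115, 76.1 and 56.4 with metatherian *CRX*. *Col8a2* was at 18.0, 13.1 and 10.7 FPKM in control, 9.57, 9.80 and 1.35 with eutherian *CRX* and 10.2, 5.40 and 1.78 with metatherian *CRX*. Metatherian libraries were below all control libraries for both genes, and eutherian libraries were so for *Col8a2* but not for *Col8a1*. The *CRX* groups overlapped with each other. *Col8a2* had the lowest fold change of any member with eutherian *CRX*, −1.44 ± 0.49, and −1.65 ± 0.48 with metatherian *CRX* (adjusted p = 0.454 and 0.148, edgeR). *Col8a1* had −1.06 ± 0.48 and −1.16 ± 0.47. In replicates 1 and 2 alone, *Col8a2* was at −0.65 ± 0.20 and −1.03 ± 0.20 and *Col8a1* at −0.45 ± 0.16 and −1.13 ± 0.16, and the metatherian value of each was called (adjusted p = 0.0121 and 0.00382, edgeR) but not the eutherian one (0.162 and 0.224). *Col10a1* was at 47.1, 47.5 and 75.4 FPKM in control, 72.03, 51.7 and 15.9 with eutherian *CRX* and 77.4, 67.7 and 39.3 with metatherian *CRX*, so that all groups overlapped. Its fold changes were −0.51 ± 0.51 and −0.03 ± 0.49 with eutherian and metatherian *CRX*, and in replicates 1 and 2 they were 0.36 ± 0.12 and 0.61 ± 0.12, the latter called (adjusted p = 0.0127, edgeR). Exons of *Col10a1* share 886 of 3130 bases with the antisense gene *Nt5dc1*, so that its reads cannot be told apart from those of the partner where strand was not counted.

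Of the FACITs, *Col12a1*, a fibril-surface collagen of tendon and connective tissue, was at 229.7, 213 and 177 FPKM in control, 176, 164 and 12.4 with eutherian *CRX* and 132, 79.1 and 47.1 with metatherian *CRX*. The *CRX* libraries were all below control, by a narrow margin in eutherian replicate 1. The fold changes were −1.31 ± 0.68 and −1.47 ± 0.65 with eutherian and metatherian *CRX* (adjusted p = 0.690 and 0.274, edgeR). Without the libraries numbered 3 they were −0.38 ± 0.17 and −1.10 ± 0.17, and only the second passed the threshold (adjusted p = 0.00555, edgeR), with a direct difference of −0.72 ± 0.17 (adjusted p = 0.0254, edgeR). *Col16a1* was at 19.5, 18.2 and 56.8 FPKM in control, 14.8, 11.5 and 37.5 with eutherian *CRX* and 29.7, 31.5 and 20.5 with metatherian *CRX*. Its replicates 3 were the highest of the control and eutherian groups and the lowest of the metatherian group. The fold changes with eutherian and metatherian *CRX* were −0.56 ± 0.44 and 0.11 ± 0.45 in all 9 libraries and −0.53 ± 0.11 and 0.70 ± 0.11 in replicates 1 and 2 (adjusted p = 0.0611 and 0.00601, edgeR). Exons of *Col16a1* share 87 bases with the antisense gene *Gm12963*.

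The collagen VI chains, which assemble into a common heterotrimer, were not alike. *Col6a1* was at 169.6, 174 and 297 FPKM in control, 124, 119 and 86.8 with eutherian *CRX* and 193, 193 and 108 with metatherian *CRX*. *Col6a2* was at 90.7, 102 and 155 FPKM in control, 69.5, 67.1 and 35.9 with eutherian *CRX* and 77.03, 85.3 and 38.4 with metatherian *CRX*. *Col6a3* was at 61.2, 70.5 and 132 FPKM in control, 61.7, 52.3 and 106 with eutherian *CRX* and 136, 168 and 122 with metatherian *CRX*. Eutherian libraries were below control for *Col6a1* and *Col6a2* and overlapped with it for *Col6a3*. Metatherian libraries were above all eutherian libraries for *Col6a3* and, with control replicate 3 at 132 FPKM, overlapped with control. The log2 fold changes with metatherian *CRX* were −0.41 ± 0.33 for *Col6a1*, −0.89 ± 0.38 for *Col6a2* and 0.81 ± 0.30 for *Col6a3* (unadjusted p = 0.0295 and adjusted p = 0.208 for the last, edgeR). With eutherian *CRX* they were −0.99 ± 0.33, −1.10 ± 0.38 and −0.25 ± 0.29. In replicates 1 and 2 the metatherian values were 0.16 ± 0.08, −0.245 ± 0.09 and 1.21 ± 0.14, and *Col6a3* alone was called (adjusted p = 0.207, 0.103 and 0.00190, edgeR). The eutherian values there were −0.51 ± 0.08, −0.49 ± 0.09 and −0.21 ± 0.14, and *Col6a1* and *Col6a2* were called (adjusted p = 0.0316, 0.0422 and 0.524, edgeR). The difference of *Col6a3* between the *CRX* forms, 1.06 ± 0.30, had the smallest p of any member in that comparison (unadjusted p = 0.00950, adjusted p = 0.309, edgeR), and in replicates 1 and 2 it was 1.41 ± 0.14 (adjusted p = 0.00133, edgeR).

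Chain ratios within a library need no scaling between libraries. The FPKM ratio of *Col6a1* to *Col6a2* was 1.87, 1.71 and 1.91 in control, 1.78, 1.77 and 2.42 with eutherian *CRX* and 2.503, 2.26 and 2.80 with metatherian *CRX*. All metatherian ratios were above all control ratios, by 0.46 log2 units beside a pooled SD of 0.12. With 3 against 3 libraries an exact two-sided permutation test cannot go below p = 0.1, the value found here, and after adjustment over 15 tests p was 1. The ratio of *Col4a1* to *Col4a2* stayed between 0.817 and 1.22 in all 9 libraries. *Col1a1* to *Col1a2*, whose proteins join in a heterotrimer, had a ratio of 1.66, 1.84 and 1.35 in control, 1.75, 1.70 and 1.18 with eutherian *CRX* and 1.398, 1.77 and 0.730 with metatherian *CRX*. For the ratios *Col1a1* to *Col1a2*, *Col3a1* to *Col1a1*, *Col5a1* to *Col5a2* and *Col4a1* to *Col4a2* no comparison had groups that did not overlap, and the exact permutation p was between 0.2 and 1.

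**Figure D4:**
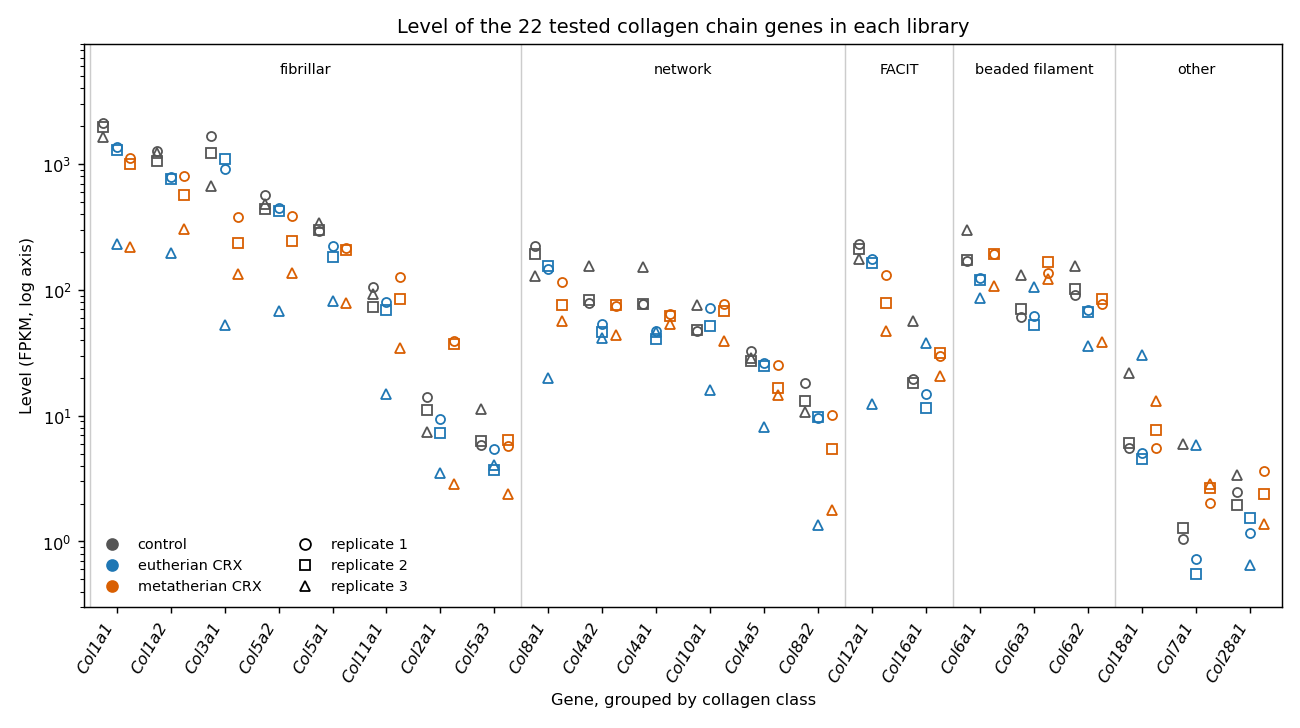
Level (FPKM, logarithmic y axis) of each of the 22 tested collagen chain genes in each library, by class (x axis), coloured by condition and shaped by replicate number. *Col1a1* is the highest member with 220.4 to 2124 FPKM, and triangles of the *CRX* groups (replicates 3) fall below the circles and squares for most fibrillar and network-forming chains but above them for *Col18a1* and *Col7a1*.

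Of the chains outside these classes, *Col18a1* and *Col7a1* were highest in replicate 3 of each condition. *Col18a1*, the precursor of endostatin in basement membranes, was at 5.53, 6.09 and 21.9 FPKM in control, 5.05, 4.50 and 30.1 with eutherian *CRX* and 5.57, 7.62 and 13.0 with metatherian *CRX*. *Col7a1*, which forms anchoring fibrils below epithelia, was at 1.04, 1.28 and 6.00 in control, 0.727, 0.548 and 5.88 with eutherian *CRX* and 2.03, 2.66 and 2.88 with metatherian *CRX*. They were the only 2 of the 22 members that were higher in replicate 3 than in the mean of replicates 1 and 2 in all 3 conditions, while 8 members were lower there in all conditions. The fold changes of *Col18a1* were 0.02 ± 0.32 and −0.08 ± 0.32 and those of *Col7a1* −0.48 ± 0.55 and 0.53 ± 0.55 with eutherian and metatherian *CRX*. In replicates 1 and 2 they were −0.28 ± 0.14 and 0.18 ± 0.14 for *Col18a1* and −0.86 ± 0.20 and 1.01 ± 0.19 for *Col7a1*, of which the last was called (adjusted p = 0.0115, edgeR). For *Col7a1* the direct difference between the *CRX* forms was 1.00 ± 0.58 in 9 libraries and 1.86 ± 0.20 in replicates 1 and 2 (adjusted p = 0.00164, edgeR). *Col28a1* was at 2.49, 1.93 and 3.35 FPKM in control, 1.16, 1.54 and 0.648 with eutherian *CRX* and 3.66, 2.37 and 1.38 with metatherian *CRX*. Its eutherian libraries were all below control, with a fold change of −1.31 ± 0.43 (adjusted p = 0.435, edgeR), against −0.19 ± 0.42 with metatherian *CRX*. These were −0.69 ± 0.23 and 0.44 ± 0.23 in replicates 1 and 2, neither of them called (edgeR). The difference between the *CRX* forms was 1.12 ± 0.42 (unadjusted p = 0.0330, adjusted p = 0.394, edgeR).

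The remaining direct differences between metatherian and eutherian *CRX* were −0.28 ± 0.46 for *Col1a1*, −0.20 ± 0.47 for *Col8a2*, −0.15 ± 0.65 for *Col12a1*, −0.15 ± 0.49 for *Col5a2*, −0.10 ± 0.48 for *Col8a1*, −0.10 ± 0.33 for *Col18a1* and −0.0080 ± 0.32 for *Col4a5*. On the other side of 0 were *Col5a1* (0.03 ± 0.35, and −0.0040 with upper-quartile scaling), *Col5a3* (0.13 ± 0.43), *Col6a2* (0.21 ± 0.37), *Col4a1* (0.45 ± 0.25), *Col4a2* (0.46 ± 0.34), *Col10a1* (0.48 ± 0.49), *Col6a1* (0.58 ± 0.33), *Col11a1* (0.65 ± 0.46) and *Col16a1* (0.66 ± 0.45). The log2 standard errors of 0.25 to 0.68 set the size of difference these libraries could show.

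The 22 members below the minimum level had at most 2.80 FPKM in any library, and 11 of them stayed below 0.5 FPKM throughout. Nearest to the minimum of 2 FPKM in the mean of a condition were *Col15a1*, *Col27a1* and *Col14a1* below it and *Col28a1* and *Col7a1* above it. *Col27a1* was at 1.38, 1.41 and 2.53 FPKM in control, 0.938, 1.05 and 0.816 with eutherian *CRX* and 0.696, 0.835 and 0.693 with metatherian *CRX*, with no overlap between control and either *CRX* group. *Col14a1*, a FACIT, was at 2.19, 1.88 and 1.00 FPKM in control, and all eutherian libraries were lower, at 0.813, 0.945 and 0.178. *Col24a1*, a minor fibrillar chain, was at 0.373, 0.448 and 1.92 FPKM in control, 0.0941, 0.165 and 0.511 with eutherian *CRX* and 0.168, 0.243 and 0.917 with metatherian *CRX*. It was the only member called over all 9 libraries by edgeR once the level filter was left out, lower with eutherian *CRX* (log2 fold change −1.76 ± 0.19, adjusted p = 0.0250, among the 14599 genes that filterByExpr keeps, of which 0.603% were called lower). *Col15a1*, *Col20a1* and *Col23a1* were between 0.523 and 2.80 FPKM, and *Col4a6* between 0.725 and 1.14. *Col25a1* was between 0.0094 and 0.472 FPKM. *Col4a3*, *Col4a4*, *Col17a1*, *Col19a1* and *Col22a1* were below 0.3 FPKM in every library. *Col6a4*, *Col6a5*, *Col6a6*, *Col13a1* and *Col26a1* were near 0 in every library.

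The machinery that folds, trims, cross-links and senses collagen was examined in 41 listed genes, of which 36 were tested and none was called (edgeR). With metatherian *CRX*, 28 of 36 were below 0, beside 51.2% of all genes, and at an unadjusted p under 0.05 there were 9 lower and 5 higher, beside 10.5 and 9.04%. With eutherian *CRX*, 34 of 36 were below 0, beside 49.7% of all genes, and at that level 10 were lower and 0 higher, beside 6.34 and 2.23%. DESeq2 called 6 lower and 3 higher with metatherian *CRX* (5.27 and 4.67% of all genes) and 3 lower with eutherian *CRX* (2.92%). Limma voom with sample quality weights called 13 lower and 8 higher with metatherian *CRX* (23.5 and 22.6% of all genes) and 13 lower with eutherian *CRX* (10.1%). Without the libraries numbered 3, edgeR called 5 of 35 higher (*P3h2*, *Pcolce2*, *Loxl3*, *Loxl4* and *Itga2*) and 8 lower (*Serpinh1*, *Adamts2*, *Lox*, *Loxl1*, *Loxl2*, *Itga1*, *Itga11* and *Ddr1*) with metatherian *CRX*, beside the 11.0 and 11.1% of all genes given above. With eutherian *CRX* it called 0 higher and 2 lower, *P4ha3* and *Itga11*, beside 0.469 and 2.47% of all genes. Between the *CRX* forms, none of the 36 was called over 9 libraries (edgeR), and DESeq2 called 2 higher with metatherian *CRX* (2.26% of all genes) and 0 lower. Voom called 16 higher and 7 lower (24.0 and 24.3% of all genes), and edgeR without the libraries numbered 3 called 11 higher and 6 lower of 35 (12.7 and 9.86%). Among the 17 tested genes of modification and folding, the median fold change was −0.26 with metatherian and −0.30 with eutherian *CRX*. *Serpinh1*, the chaperone HSP47 of procollagen, was at 1254, 1140 and 907 FPKM in control, 969, 1061 and 426 with eutherian *CRX* and 649.8, 635 and 351 with metatherian *CRX* (−1.07 ± 0.19, unadjusted p = 0.000962, adjusted p = 0.0822, edgeR). *P3h2*, a prolyl 3-hydroxylase, was at 3.06, 3.58 and 5.46 FPKM in control and 7.15, 9.63 and 5.35 with metatherian *CRX* (0.92 ± 0.31). *P4ha3*, a prolyl 4-hydroxylase subunit, had the change furthest from 0 with eutherian *CRX* (−1.25 ± 0.29, adjusted p = 0.200, edgeR), and *P3h3*, a prolyl 3-hydroxylase, was at −0.64 ± 0.28.

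Procollagen trimming gave a median of −0.38 with metatherian and −0.34 with eutherian *CRX* over 7 genes. The N-proteinases *Adamts2* and *Adamts14* were at −1.44 ± 0.30 and −1.31 ± 0.29 with metatherian *CRX* and at −0.85 ± 0.31 and −0.86 ± 0.29 with eutherian *CRX*. *Adamts3*, of the same family, was at −1.06 ± 0.63 and −0.30 ± 0.66. *Pcolce2*, an enhancer of C-propeptide cleavage, was at 14.5, 16.7 and 15.5 FPKM in control, 15.5, 17.6 and 25.03 with eutherian *CRX* and 43.3, 47.0 and 22.2 with metatherian *CRX*. Its metatherian libraries were all above control (1.26 ± 0.31, unadjusted p = 0.0050, adjusted p = 0.116, edgeR).

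Of 5 cross-linking enzymes of the lysyl oxidase family, *Lox* was at 2739, 1856 and 945 FPKM in control, 1941, 2365 and 115 with eutherian *CRX* and 1241, 719 and 335 with metatherian *CRX* (−0.82 ± 0.64 and −1.36 ± 0.61). *Loxl1* and *Loxl2* were at −1.25 ± 0.26 and −1.27 ± 0.52 with metatherian *CRX* and at −0.55 ± 0.26 and −1.42 ± 0.54 with eutherian *CRX*. *Loxl3* and *Loxl4* were at 0.62 ± 0.40 and 0.62 ± 0.25 with metatherian *CRX*, and their metatherian libraries were all above the eutherian ones, as in 6.23% of all genes (differences of 0.90 ± 0.38 and 0.83 ± 0.25). Among 7 tested collagen receptors, the integrin subunit *Itga2* was at 0.532, 0.822 and 2.47 FPKM in control, 0.615, 0.549 and 22.7 with eutherian *CRX* and 4.33, 8.02 and 14.95 with metatherian *CRX* (3.10 ± 0.86, adjusted p = 0.134, edgeR). *Itga11*, a collagen-binding subunit of fibroblasts, was at −1.86 ± 0.53 with eutherian and −1.15 ± 0.51 with metatherian *CRX*, and *Itga1* at −1.20 ± 0.31 and −1.22 ± 0.31. *Itgb1*, the partner of these subunits, was at −0.23 ± 0.12 and 0.08 ± 0.12.

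The genes whose log2 CPM ran most like that of *Col1a1* over the 9 libraries were *Vps25* (Pearson r = 0.991), *Sema3b* (0.989), *Pth1r* (0.988), *Adamtsl4* (0.986) and *Efemp2* (0.985), of 10078 tested genes that are not collagens. The 9 libraries share the 3 conditions and the offset of the replicates numbered 3, so these values describe the libraries and carry no test.

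Fibrillar chains stood apart from the other classes in a property that expression did not enter. This was the length of glycine-X-Y runs in the longest reading frame of their transcripts. The other classes overlapped with each other, and no test was run. The longest uninterrupted run was 216 to 344 triplets in fibrillar chains (median 338). It was 39 to 66 triplets in network-forming chains (median 45), 32 to 113 in FACITs (median 57) and 37 to 87 in beaded filament chains (median 45).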

How the data were processed

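RNA-seq of MEFs comprised 9 libraries, 3 per condition, at 54145701 to 94699657 counts each. The authors aligned 2 × 75 bp reads with STAR 2.4.0 to mm10 and deposited raw counts per gene made with featureCounts 1.4.6, not normalized and not pooled. The annotation release and strand option are not given in the sources used here. FPKM was computed from these counts, exon lengths and TMM factors (0.961 to 1.10). Exon lengths were those on the main chromosome for collagens and those on all sequences for other genes. The level filter used all sequences for every gene and no TMM factors. For *Col16a1* and *Col11a2* the exon length was thus 11478 and 30024 bases in the filter and 5718 and 7744 in the values given. Tests were run in R 4.3.3 with edgeR 4.0.16 (limma 3.58.1). Library sizes were total counts, scaled by TMM, and genes had to pass filterByExpr and exceed 2 FPKM in the mean of any condition (10100 genes). The block in glmQLFTest was the replicate number, since the study describes paired preparation, and p-values were Benjamini-Hochberg adjusted. Same-numbered libraries deviated together at r above 0.1 in 8 of 9 pairs (0.0034 to 0.75), so the numbers are not shown to mark pairs. Members, classes and gene lists were chosen with earlier results of these data known. All tested collagens are named. Values per library are given for the 3 most abundant of each class and the extremes of each comparison, and for biosynthesis lists the 2 genes furthest from 0. Sequences are from RefSeq (GRCm38.p6), and reading frames from GENCODE M21. DESeq2 1.42.0, limma voom, other scalings, filters and left-out libraries were alternatives, and the code was tested on simulated data.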

Additional observations from a re-analysis of the deposited data

How the results depend on the processing

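With metatherian *CRX* against control, the number called moved from 0 to 5 with DESeq2, 16 with limma voom and sample quality weights, 14 without all libraries numbered 3 and 3 with only the 6 libraries compared, and leaving out single libraries gave 0 to 6. Of all genes, 0.0297% were called in the reported fit and 9.94, 46.2, 22.2 and 3.97% under these 4 alternatives. With single libraries left out the share was 8.83% without eutherian *CRX* replicate 3, 4.92% without metatherian *CRX* replicate 3 and 0.0% otherwise. With eutherian *CRX* it moved from 0 to 7, 12 and 6 under the first 3 of these, and to 1 (*Col24a1*) with filterByExpr alone or no filter, where more genes were tested. The shares of all genes were 0.604% in the reported fit and 3.3, 16.8, 2.94, 0.623 and 0.595% under these alternatives. Leaving out single libraries kept the number called with eutherian *CRX* at 0. Of all genes, 0.158% were then called without metatherian *CRX* replicate 2 and 1.16% without its replicate 3. The share was 0.0% in the other fits, so this count is not particular to collagens there. Between the *CRX* forms it moved from 0 to 1 with DESeq2, 10 with voom and 12 without the libraries numbered 3, beside 3.14, 48.3 and 22.5% of all genes. With single libraries left out it was 0 to 3. Of all genes, 3.47% were called without eutherian *CRX* replicate 3, 1.48% without metatherian *CRX* replicate 3 and 0.0% otherwise. The median collagen fold change with metatherian *CRX* moved to −0.235 with voom and −0.171 without the libraries numbered 3, and ranged over −0.954 to −0.223 without single libraries, the latter without control replicate 3. With eutherian *CRX* it was −0.546 with voom and −0.501 without the libraries numbered 3 and ranged over −1.35 to −0.455, again −0.455 without control replicate 3. A fit with no replicate block was needed because the shared numbers are not shown to pair libraries (7 of 9 libraries correlated best with their own number). It called 0 collagens in each comparison, beside 0.0% of all genes, so this count is not particular to collagens. Its collagen medians were −0.694, −0.795 and 0.108 for metatherian *CRX*, eutherian *CRX* and their difference. At an unadjusted p under 0.05 (edgeR), 2 collagens were lower and 0 higher with metatherian *CRX* in the fit with no replicate block, against 7 and 1 with it. With eutherian *CRX* 5 were lower and 0 higher, against 9 and 0. The share of all genes at that level was not counted for the fit with no block. The cause of these movements was not tested.

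No tested member was called over all 9 libraries by edgeR, and the following fold changes turned sign. Against control with metatherian *CRX*, the values were *Col10a1* 0.54, *Col11a1* 0.18, *Col18a1* 0.14, *Col28a1* 0.40 and *Col6a1* 0.11 with voom. They were *Col10a1* 0.61, *Col11a1* 0.24, *Col18a1* 0.18, *Col28a1* 0.44 and *Col6a1* 0.16 without the libraries numbered 3. With no replicate block *Col10a1* was at 0.12, *Col16a1* at −0.21 and *Col7a1* at −0.14, and with only the 6 libraries compared *Col10a1* was at 0.11. Single libraries left out gave *Col10a1* −0.45 to 0.79, *Col11a1* −0.81 to 0.37, *Col16a1* −0.34 to 0.69, *Col18a1* −0.43 to 0.29, *Col28a1* −0.55 to 0.43, *Col6a1* −0.68 to 0.11 and *Col7a1* −0.047 to 1.15. With eutherian *CRX*, *Col10a1* was at 0.34 with voom and 0.36 without the libraries numbered 3, and *Col18a1* at −0.046, −0.28 and, with the 6 libraries compared, −0.030. Single libraries left out gave *Col10a1* −0.98 to 0.20, *Col18a1* −0.43 to 0.30 and *Col6a3* −0.43 to 0.0096. Between the *CRX* forms, *Col1a2* was at 0.0017 with DESeq2, 0.0016 with relative-log-expression scaling, 0.00028 with filterByExpr alone and 0.0048 with no filter, where *Col4a5* was at 0.00023. *Col5a1* was at −0.0040 with upper-quartile scaling and −0.0098 with voom, and *Col18a1* at 0.18 with voom and 0.45 without the libraries numbered 3. With only the 6 libraries compared, *Col12a1* was at 0.11, *Col1a2* at 0.068, *Col4a5* at 0.052, *Col5a2* at 0.00016 and *Col8a1* at 0.019. Single libraries left out gave *Col12a1* −0.85 to 0.47, *Col18a1* −0.42 to 0.32, *Col1a2* −0.39 to 0.35, *Col4a5* −0.40 to 0.33, *Col5a1* −0.17 to 0.28, *Col5a2* −0.67 to 0.34, *Col5a3* −0.28 to 0.58, *Col6a2* −0.0090 to 0.49, *Col8a1* −0.69 to 0.41 and *Col8a2* −0.61 to 0.30. Of the other values of single members, 1007 kept their direction and their side of the threshold and 96 kept their direction and newly passed it.

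The limits of these data are the 3 libraries per condition and the offset of the libraries numbered 3. The chain ratios could not reach p below 0.1 by exact permutation. At a level of 287 counts or more per library, the spread between replicates and not counting set the precision of the tested members.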
